A study of Mus musculus with 23 samples.

Results

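The mouse major histocompatibility complex (MHC, or H2 complex) was examined as a block of chromosome 17. Its members were all 150-bp windows of the MBD-seq matrix whose start lay between 33.8 and 37.4 Mb of GRCm38, and 759 of the 210191 windows met this rule. The rule used position only and no measured value. In MBD-seq, fragments of DNA are pulled down by MBD2, which binds methylated CpGs, before they are sequenced, and the signal of a window rises with the methylation and the number of its CpGs. The signal is given as log2 RPKM, a logarithm of the reads in a window relative to its length and to the size of the library.

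The prefrontal cortex of 23 inbred mice was assayed, in 4 groups. They were 5 control mice of C57BL/6J (B6), 6 B6 mice after CORT+DFP, 6 control mice of DBA/2J (D2), and 6 D2 mice after CORT+DFP. CORT+DFP mice drank water with corticosterone at 20 mg% over 7 days, received 1 injection of diisopropyl fluorophosphate (DFP, a surrogate of the nerve agent sarin) at 4 mg per kg, and then drank corticosterone in alternate weeks, for 12 weeks by the study's methods, although its text is not uniform on the time from DFP to tissue collection. Control mice had the same schedule with plain water and saline. There were 11 females and 12 males, aged 145 to 226 days. The sample names place the mice in 3 sets. All 5 B6 controls, aged 145 days, were in set 2, whereas the D2 controls, aged 147 or 196 days, were in sets 1 and 3, so no set held control mice of both strains. Strain and set therefore cannot be told apart in control mice, and only set 1 held CORT+DFP mice of both strains (3 B6 and 2 D2).

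The MHC holds the genes of adaptive and innate immunity in 3 classical classes. Class II molecules (H2-A and H2-E) present peptides from outside the cell to helper T cells, with H2-DM and H2-O as the chaperones of peptide loading. Class I molecules (H2-K, H2-D, H2-Q, H2-T and H2-M) present peptides from inside the cell or act as nonclassical ligands. Class III lies between them and holds complement, tumor necrosis factor and heat shock genes, among many unrelated ones. The complex is among the most polymorphic blocks of the genome. B6 carries the haplotype b and D2 the haplotype d, and these differ in sequence and in the number of class I genes. In the brain, class I molecules and complement are known for roles at synapses and in microglia.

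Reads of both strains were aligned to a reference derived from B6. A difference between the strains in the captured signal can thus be one of methylation, of sequence or CpGs in the window, of gene copy number, or of the alignment of D2 reads, and these cannot be told apart in these data. How reads that align to more than 1 place were treated is not given in the sources used here, so values in near-identical copies (H2-DMb1 and H2-DMb2, Hspa1a and Hspa1b, C4a and C4b, the class I genes) are uncertain. The tissue was taken from the labels, since captured DNA holds no expression to check it with.

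The coding stretches of windows on which the results turn are shown first, read from GENCODE M21 transcripts (GRCm38) as they stand in the reference. Each is written 5′ to 3′ on the strand of its gene, with CpGs, the sites that MBD2 captures when methylated, in capitals. They are shown because H2-Eb1, Ddx39b and H2-DMb2 gave more signal in D2, while H2-DMb1, Hspa1a, H2-Q7 and Gm11127 gave less, and because the Slc44a4 stretch lies in a window whose strain difference had opposite signs in the 2 treatments.
H2-Eb1 chr17:34309591-34309650 (+): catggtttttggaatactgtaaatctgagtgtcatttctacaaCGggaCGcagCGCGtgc
H2-DMb2 chr17:34148701-34148835 (+): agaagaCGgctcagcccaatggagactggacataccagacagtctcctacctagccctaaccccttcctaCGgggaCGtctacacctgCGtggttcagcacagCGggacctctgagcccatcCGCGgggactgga
H2-DMb1 chr17:34157401-34157530 (+): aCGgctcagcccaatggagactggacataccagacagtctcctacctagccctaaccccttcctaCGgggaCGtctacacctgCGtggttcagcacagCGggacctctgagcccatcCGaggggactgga
Hspa1a chr17:34970851-34971000 (-): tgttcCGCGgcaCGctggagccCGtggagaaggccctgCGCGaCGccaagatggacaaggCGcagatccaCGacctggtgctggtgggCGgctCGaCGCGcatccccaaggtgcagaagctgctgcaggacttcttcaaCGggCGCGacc
Ddx39b chr17:35253207-35253300 (+): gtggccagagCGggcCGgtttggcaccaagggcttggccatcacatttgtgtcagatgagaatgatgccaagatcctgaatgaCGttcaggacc
H2-Q7 chr17:35440051-35440184 (+): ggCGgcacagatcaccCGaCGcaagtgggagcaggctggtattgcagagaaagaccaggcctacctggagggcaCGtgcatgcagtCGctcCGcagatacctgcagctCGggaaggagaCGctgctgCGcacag
Gm11127 chr17:36058286-36058350 (-): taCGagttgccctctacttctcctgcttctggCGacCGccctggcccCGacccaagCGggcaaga
Slc44a4 chr17:34921528-34921650 (+): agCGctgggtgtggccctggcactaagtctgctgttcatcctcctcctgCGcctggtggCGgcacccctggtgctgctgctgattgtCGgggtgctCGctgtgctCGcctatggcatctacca

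These stretches differ widely in CpG density. The 150 bases of Hspa1a hold 16 CpGs, whereas the 94 bases of Ddx39b hold 3 and the 60 bases of H2-Eb1 hold 4. The H2-DMb1 and H2-DMb2 stretches aligned over 130 bases and differed at 1 of them (99.2% identity). As a check of the coordinates, 99 windows lay wholly in a coding exon, and the number of CpGs listed for the window was the number in the transcript sequence in 95 of them and within 1 in all 99.

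Windows were unevenly spread along the MHC. The block was divided at genes into a K part before H2-Oa (103 windows), a class II part from H2-Oa to before Notch4 (63), a class III part from Notch4 to before H2-D1 (262), a D/Q part from H2-D1 to before Pou5f1 (78), and a T/M part from Pou5f1 onward (253). There were 37.5 windows per 100 kb in class III and 35.2 in the K part, but 13.3 in class II and 13.4 in the T/M part. Class III and the K part were measured mostly over genes, with 12.2% and 7.77% of windows between genes, against 49.2% in class II, 67.9% in the D/Q part and 40.3% in the T/M part. Promoters were nearly absent. Of 28 class I genes in the annotation, 1 (H2-D1) had a window from 1000 bases before to 500 bases after its start, as did 0 of 12 class II genes and 0 of 5 genes of antigen processing. The depth was 9776537 to 18428398 reads per mouse over all windows and 22105 to 43905 in the MHC, and the median of 40 reads per window and mouse gives a counting SD of 0.23 on the log2 scale.

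The strains differed over much of the MHC. In control mice, 264 of 759 windows (34.8%) were called in a regression with terms for treatment, strain, the interaction of both, sex and age (Benjamini-Hochberg adjusted p under 0.05 over all windows), against 25.4% of all windows. The difference lay on the side of lower signal in D2: 184 windows were lower in D2 (24.2%, against 14.9% of all windows) and 80 were higher (10.5%, against 10.4%). The CORT+DFP mice, which share no mouse with the controls, gave 281 called windows (37.0%, against 26.6%), with 160 lower in D2 (21.1%, against 15.6%) and 121 higher (15.9%, against 10.9%). Of the windows called in control mice, 228 (86.4%) were also called in the same direction in CORT+DFP mice, and these made up 81.1% of the calls there. With set in place of age as a term, 154 windows were called in control mice and 206 in CORT+DFP mice. The shares over all windows under this term are not given here. Within set 1, the CORT+DFP mice differed in the same direction in 281 of the 281 windows called. These mice were part of the fit that gave the calls, so the agreement was largely fixed by the choice of windows. It does not separate strain from set.

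**Figure D1:**
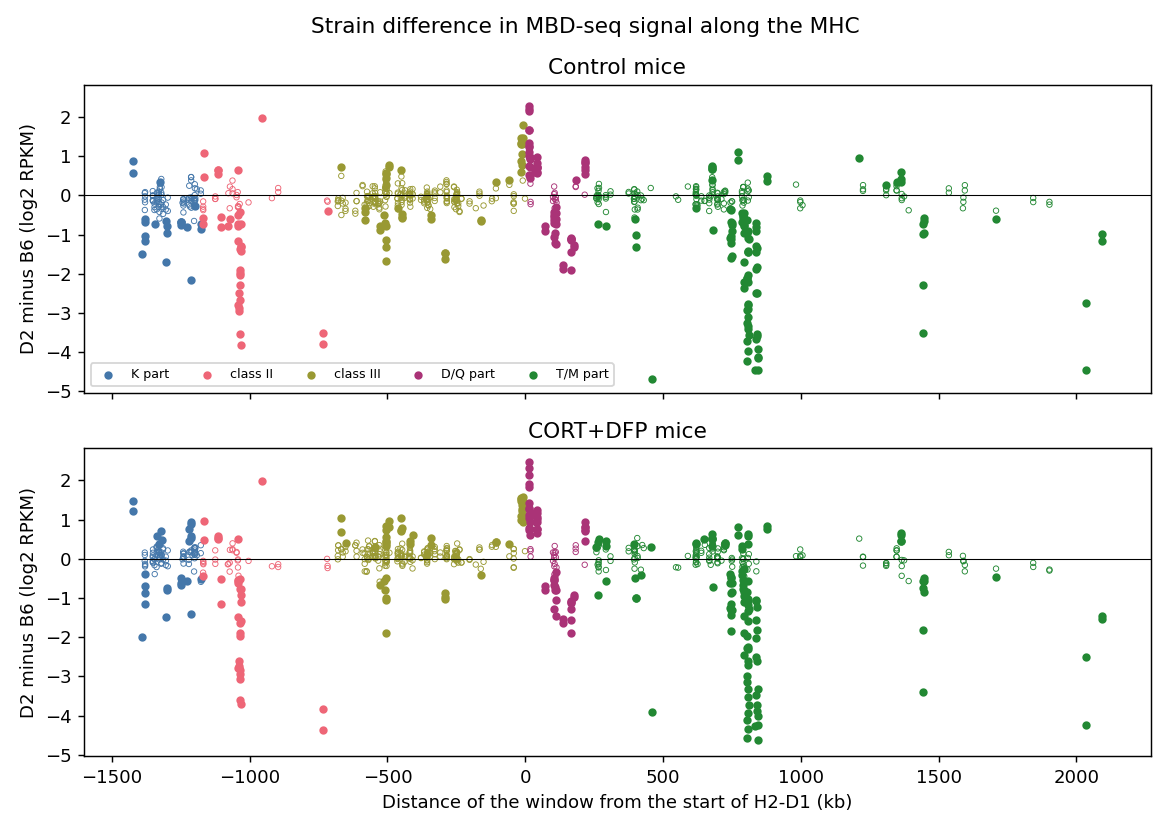
Fitted difference between D2 and B6 in log2 RPKM (y axis) of each of the 759 windows against its distance in kb from the start of H2-D1 (x axis), in control mice (top) and CORT+DFP mice (bottom). Colors are the 5 parts, and filled points are the windows called at adjusted p under 0.05 (264 and 281). Points far below 0 cluster near -1036 kb, between Tap2 and H2-Ob, and from 805 to 841 kb, between Gm6034 and Gm7030, and points above 0 lie on both sides of H2-D1.

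The classes differed in how much and in which direction. In class II, 37 of 63 windows were called in control mice (58.7%), 7 higher and 30 lower in D2. Of its windows between genes, 26 of 31 were called. By lists of class II, antigen processing and butyrophilin-like genes in place of positions, 12 of 43 windows were called (27.9%). These windows overlap genes, for which the share over the whole matrix was 18.5%. By gene lists class III had 31 of 195 called (15.9%). In class III, 43 of 262 were called (16.4%), with 21 higher and 22 lower, a smaller share than the 25.4% over all windows. The kinds of window differ, however, since 170 of the 262 were in coding exons, of which 6.42% were called over the whole matrix. Windows of class III over genes were called in 13.5%, against 18.5% of all such windows. Those between genes were called in 37.5%, against 31.7%. The D/Q part had the largest share of the 5 parts (59 of 78, 75.6%), and in control mice it was the one part with more windows higher (34) than lower (25). The T/M part was called in 103 of 253 windows (40.7%), 15 higher and 88 lower, and the K part in 22 of 103 (21.4%), 3 higher and 19 lower. In CORT+DFP mice the shares were 54.0% in class II, 18.3% in class III, 73.1% in the D/Q part, 45.8% in the T/M part and 25.2% in the K part. Directions there differed from controls in class III, with 37 higher and 11 lower, and in the K part, with 12 higher and 14 lower. Class II (7 and 27), the D/Q part (34 and 23) and the T/M part (31 and 85) kept the leading direction. Coding exons of the whole matrix moved likewise. Over all 39191 such windows the median difference was -0.064 in control mice and 0.059 in CORT+DFP mice. At an unadjusted p of 0.05 or less, 996 of 4665 were higher in D2 in control mice, and 3696 of 5837 in CORT+DFP mice. In the K part 79 of 103 windows were in coding exons. Whether the splits of the parts differ between the treatments was not tested. With set in place of age the shares in control mice were 44.9% in the D/Q part, 28.6% in class II, 28.5% in the T/M part, 8.74% in the K part and 7.63% in class III. The share over all windows with that term is not given here, so these shares cannot be placed above or below it.

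**Figure D2:**
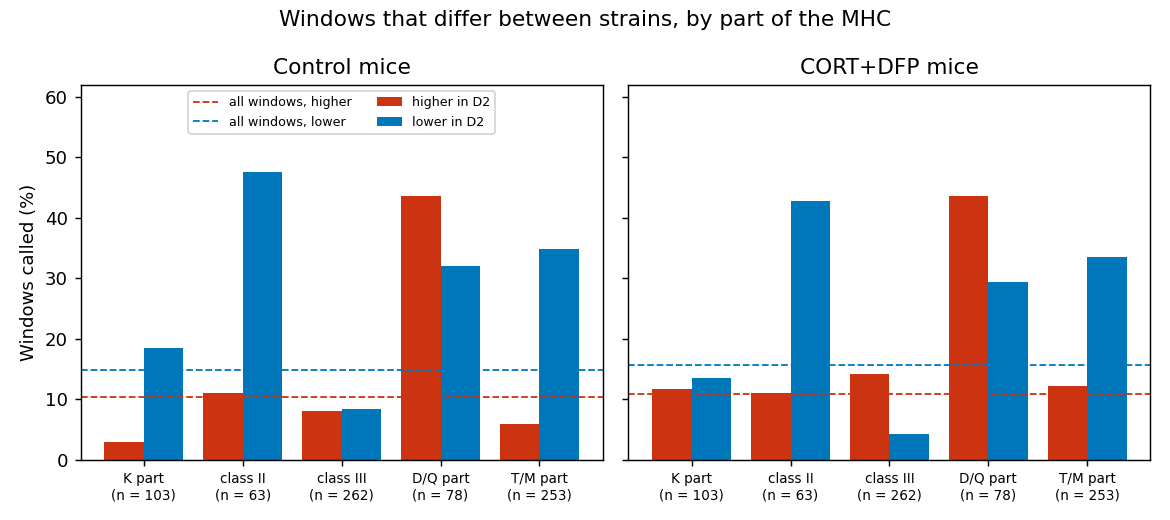
Percent of windows called higher (red) or lower (blue) in D2 in each part of the MHC, in control mice (left) and CORT+DFP mice (right). Dashed lines are the percent over all 210191 windows, 10.4% higher and 14.9% lower in control mice and 10.9% and 15.6% in CORT+DFP mice. In both panels lower signal in D2 leads in class II and the T/M part and higher signal in the D/Q part. In class III the directions are near equal in control mice (8.02% higher, 8.40% lower), and higher signal leads in CORT+DFP mice (14.1% against 4.20%). Over all coding-exon windows of the matrix the median difference moved likewise, from -0.064 in control mice to 0.059 in CORT+DFP mice.

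Mean levels over all windows of a part followed these counts. In class II the mean was 4.34 ± 0.037 log2 RPKM (SD, n = 5) in B6 control mice and 3.60 ± 0.063 (SD, n = 6) in D2 control mice, and in the T/M part it was 4.55 ± 0.030 and 3.96 ± 0.032. These ranges did not overlap between the strains: the D2 control mice reached 3.69 in class II and 4.00 in the T/M part, and the B6 control mice fell no lower than 4.28 and 4.51. These means hold windows in which D2 had 3 or fewer reads and which passed the authors' filter through B6 alone. Without them (59 windows of class II and 235 of the T/M part), the class II means were 4.33 ± 0.038 in B6 and 3.80 ± 0.067 in D2, the T/M means were 4.55 ± 0.029 and 4.21 ± 0.036, and the ranges again did not overlap. In the D/Q part the D2 mean was the higher one (4.37 ± 0.067 against 4.25 ± 0.073), and in class III the means were 4.41 ± 0.043 in D2 and 4.38 ± 0.066 in B6.

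Windows between genes were called more often than windows over genes. In control mice 145 of 226 intergenic windows were called (64.2%), against 119 of 533 windows that overlap a gene (22.3%), and over the whole matrix these shares were 31.7% and 18.5%. The order held in 4 of the 5 parts, with 83.9% against 34.4% in class II, 62.7% against 25.8% in the T/M part, 37.5% against 13.5% in class III and 75.0% (6 of 8 windows) against 16.8% in the K part. It turned in the D/Q part, with 69.8% between genes and 88.0% over genes. Coding exons made up 63.8% of the windows that were not called, but 13.8% of those higher and 19.0% of those lower in D2. The whole matrix had this order too, with 6.42% of coding-exon windows and 29.7% of other windows called. In the MHC these shares were 12.7% and 54.9%. Windows lower in D2 held more CpGs (median 7) than windows higher in D2 or not called (median 5).

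In 22 windows the D2 mice had a mean of 3 or fewer reads (2.90% of the MHC, against 1.94% of all windows), and 0 windows had so few in B6, where the share over all windows was 0.0404%. These 22 passed the authors' filter on reads through the B6 mice and so had to differ. All 22 lay in class II (4) or the T/M part (18), 20 were intergenic and 0 were in coding exons. The other two overlap the pseudogenes Gm8810 and Gm8815. In the Gm8815 window (chr17:36096601-36096750) the B6 mice had a mean of 36.8 reads and no D2 mouse had a read, which allows up to 3 reads over the D2 mice by counting error. In a window 10399 bp from Btnl6 (chr17:34527751-34527900), a gene of the butyrophilin-like family, B6 mice had 470 reads in all and D2 mice 11. Every D2 mouse lay below every B6 mouse in 103 windows (13.6%, against 10.1% of all windows) and above every B6 mouse in 41 (5.40%, against 2.87%). Among the 737 windows above 3 reads in both strains these counts were 81 (10.99%, against 8.29% of such windows in the whole matrix) and 41 (5.56%, against 2.89%). The strain calls in these windows, adjusted over them alone, were 160 lower and 80 higher in control mice.

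The class II genes themselves were split. Of 19 windows in 8 of the 12 class II genes of the annotation, 4 were higher in D2, 4 were lower and 11 were not called. With set in place of age 0 of the 19 were called in control mice, and in CORT+DFP mice the same term left 3 higher and 1 lower. H2-DMa (3 windows) encodes the alpha chain of the H2-DM chaperone, and H2-Ab1 (1 window) the beta chain of H2-A. H2-Ea-ps (1 window) is a polymorphic pseudogene in the annotation. The windows of these genes had differences between -0.18 and -0.03 and were not called. H2-Oa, the alpha chain of the H2-O chaperone, was lower in D2 in 2 of its 6 windows, with differences of -0.58 and -0.74 log2 RPKM.

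H2-Eb1 encodes the beta chain of H2-E, and its 1 window (chr17:34309501-34309650, 9 CpGs) had the largest increase in D2 in class II. Its log2 RPKM was 0.46, 1.92, 2.27, 2.40 and 3.03 in the B6 controls, and in the D2 controls the lowest value was 3.31, the median 4.20 and the highest 4.57. After CORT+DFP the lowest, median and highest values were 1.38, 2.26 and 2.96 in B6 and 4.05, 4.10 and 4.28 in D2. Every D2 mouse was above every B6 mouse in both treatments. The difference was 1.98 ± 0.38 (SE) in control mice, a 3.94-fold higher signal in D2, with an adjusted p of 0.000618 in the regression over all windows. The window with the largest difference of each part in each direction was chosen among those with no overlap of the strains, so the lack of overlap in such windows restates the choice, and no exact p is given for them. The B6 controls had 1 to 14 reads here, so their spread was wide, and with set in place of age the difference was 1.30 and was not called.

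H2-DMb1 and H2-DMb2 encode 2 beta chains of H2-DM and moved in opposite directions. In the H2-DMb2 window (chr17:34148701-34148850, 7 CpGs) the B6 controls had 4.24, 4.27, 4.34, 4.57 and 4.62 log2 RPKM and the D2 controls had 4.76 at the lowest, 5.08 at the median and 5.32 at the highest. The difference was 0.66 ± 0.14 (adjusted p = 0.00113 in the regression), and all 3 windows of the gene were called. In H2-DMb1 both windows were lower in D2, with a difference of -0.80 in the window that matches the H2-DMb2 one and -0.54 in its neighbour. The near-identical windows of the pair were then added up in each mouse, a step chosen after their values were seen. Their summed log2 RPKM was 5.40 ± 0.15 (SD, n = 5) in B6 controls and 5.52 ± 0.15 (SD, n = 6) in D2 controls, while the H2-DMb2 level exceeded the H2-DMb1 level by 0.06 ± 0.47 in B6 and by 1.57 ± 0.40 in D2. The sum differed less between the strains than either window did, which follows from adding windows that moved in opposite directions and is no test. Placement of reads between the 2 copies and methylation of each copy cannot be told apart.

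Between Tap2, a subunit of the peptide transporter, and H2-Ob, 7 runs of 1 or more windows were lower in D2 and 1 window was higher (0.65). The longest of the lower runs held 7 windows (chr17:34226851-34228200, median -2.04, with 42.7 reads per B6 mouse and 7.08 per D2 mouse) and the next 5 (chr17:34231351-34233000, median -1.31), and all 12 were called in the same direction in CORT+DFP mice. Each of these runs held a window with a mean of 3 or fewer reads in D2 (chr17:34227301-34227450 and chr17:34232851-34233000). Such windows passed the authors' filter through B6 and had to differ, so their repeat adds no support. In the called window with the lowest difference of class II among those above 3 reads in each strain (chr17:34223851-34224000, 7530 bp from Tap2), the B6 controls had 4.22, 4.24, 4.47, 4.51 and 4.59 log2 RPKM and the D2 controls 1.17, 1.53 and 1.77 at the lowest, median and highest. The difference was -2.95 ± 0.22 and, by the way it was chosen, the groups did not overlap. Genes of antigen processing had a share of calls near that of all windows that overlap a gene (18.5%). Most of their windows were in coding exons, however, and the share was above the 6.42% of all coding-exon windows. Tap1, Tap2, Tapbp, Psmb8 and Psmb9, the transporter, its chaperone and the subunits of the immunoproteasome, had 3 of 19 windows (15.8%) lower in D2 and 0 higher, with 1 window each in Tapbp (-0.73), Psmb9 (-0.79) and Tap1 (-0.60), and quantile normalization gave 1 higher and 2 lower. In CORT+DFP mice 1 was higher and 0 lower.

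Class III was the part with the smallest share of calls. Over the whole matrix, 6.42% of coding-exon windows and 18.5% of windows over genes were called in control mice. Beside the first of these shares, counts of 0 in small lists are no result about their genes. Among chromatin regulators of the MHC (Ehmt2, Brd2, Ring1, Daxx and Bag6, of which 4 had windows), the regression and limma called 0 of 38 windows in control mice, and 1 had an unadjusted p of 0.05 or less. Ehmt2, a histone H3 methyltransferase, had 22 of these windows, with differences from -0.32 to 0.20. Vars, the valyl-tRNA synthetase, had 24 windows with 0 called and 0 at an unadjusted p of 0.05 or less in control mice. Complement genes and Cyp21a1, the steroid 21-hydroxylase, had 6 of 31 windows lower and 1 higher in D2 control mice (22.6% called). In CORT+DFP mice 1 was lower and 4 were higher. In C4a 3 windows were lower and 1 higher, and in C4b 2 were lower. The remaining class III list had 13 higher and 7 lower of 144 (13.9% called), and 11 of the 13 belonged to a single gene, Ddx39b. In CORT+DFP mice this list had 22 higher and 1 lower. Among the TNF family, 1 of 8 windows (12.5%) was higher in D2, in Lta.

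Ddx39b, which encodes an RNA helicase of splicing and mRNA export, was higher in D2 in all 11 of its windows. Their median difference was 1.31, from 0.60 to 1.79, with medians of 18.6 reads per B6 mouse and 53.4 per D2 mouse. In the window at its largest difference (chr17:35253151-35253300, 4 CpGs) the B6 controls had 1.06, 2.38, 2.81, 2.86 and 3.11 log2 RPKM, and the D2 controls 3.94 at the lowest, 4.39 at the median and 4.52 at the highest. After CORT+DFP B6 spanned 2.57 to 3.26 and D2 3.88 to 4.88, so no mice of the 2 strains overlapped. The difference was 1.79 ± 0.30, a 3.47-fold higher signal (adjusted p = 0.00014 in the regression). All 11 windows were also called in CORT+DFP mice, and 8 of 11 with set in place of age. Beyond Ddx39b, the 2 windows before H2-D1 were not called (0.38 and -0.08), and the next called windows, on the other side of H2-D1, were higher in D2 too.

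Hspa1a, the inducible heat shock protein 70, went the other way. Its 3 windows, with 14 to 16 CpGs each, were lower in D2, with differences of -1.46, -1.46 and -1.61. In the window shown above, which the gene model Gm20481 overlaps on the other strand, the B6 controls had 3.93, 4.03, 4.13, 4.69 and 4.86 log2 RPKM, and the D2 controls 2.60, 3.05 and 3.31 at the lowest, median and highest. After CORT+DFP the B6 mice spanned 3.59 to 4.65 and the D2 mice 2.27 to 3.47, again without overlap. The difference in control mice was -1.61 ± 0.22 (adjusted p = 1.36e-05 in the regression). Hspa1l, the testis-enriched member beside it, had 0 of 14 windows called in the regression, with differences from -0.20 to 0.38 and 3 windows at an unadjusted p of 0.05 or less, and after median centring the heat shock list had 3 windows higher in D2 beside its 3 lower. Hspa1b had no window, and the placement of its reads was not tested.

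The window at the start of Lta, lymphotoxin alpha, was named because a RefSeq promoter sequence (around the gene start, GRCm38.p6) overlaps it. Windows overlapped such a promoter in 3 of 183 genes. The part of it before the RefSeq start, bases 99 to 1 upstream, is shown because it carries 6 of the 7 CpGs listed for the window.
Lta chr17:35205352-35205450 (-): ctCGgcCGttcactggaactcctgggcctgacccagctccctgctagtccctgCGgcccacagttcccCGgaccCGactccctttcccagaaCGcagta
The B6 controls had 3.91, 4.18, 4.19, 4.26 and 4.39 log2 RPKM there, and the D2 controls 4.56 at the lowest, 4.67 at the median and 4.80 at the highest, so the control groups did not overlap. After CORT+DFP they did, with 3.81 to 4.38 in B6 and 4.05 to 4.73 in D2. The difference in control mice was 0.39 ± 0.12 (adjusted p = 0.0249 in the regression), but the call was lost without B6 control replicate 1 (0.29) or 2 (0.38), without D2 control replicate 4 (0.37) or 6 (0.39), with set in place of age (0.18), and with the mean level of coding exons as a term (0.40).

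**Figure D3:**
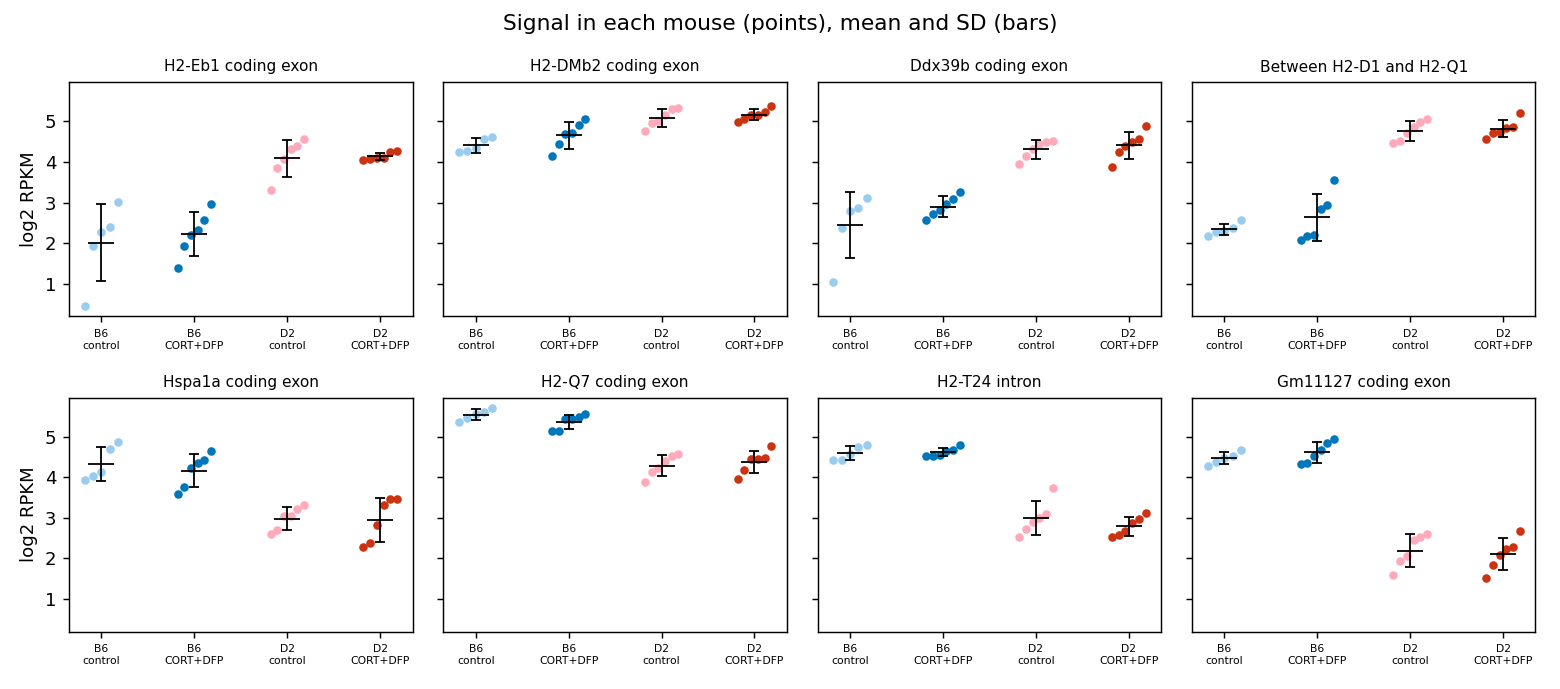
Log2 RPKM in each of the 23 mice (points), with the group mean and SD (bars), in 8 windows of the MHC. The 4 upper windows were higher in D2, as in H2-Eb1 (2.02 ± 0.96 in B6 controls, 4.09 ± 0.46 in D2 controls), and the 4 lower ones were lower, as in H2-Q7 (5.54 ± 0.14 and 4.29 ± 0.26).

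The D/Q part opened with the longest run of windows higher in D2. Between H2-D1, a classical class I gene, and H2-Q1, 15 neighbouring windows (chr17:35276101-35278950, 2850 bp, gaps of at most 1000 bp) were all higher in D2 in control mice, by 0.52 to 2.28 (median 1.24), and 15 of 15 were called in CORT+DFP mice. They had medians of 21.0 reads per B6 mouse and 54.7 per D2 mouse, and in 12 of the 15 all D2 mice lay above all B6 mice. In the window with the largest difference (chr17:35276401-35276550, 6 CpGs, 8902 bp from H2-D1), the B6 controls had 2.19, 2.28, 2.30, 2.38 and 2.57 log2 RPKM and the D2 controls 4.47, 4.79 and 5.06 at the lowest, median and highest. The difference was 2.28 ± 0.20, a 4.86-fold higher signal. The end of the run overlaps the pseudogene Gm18733, and the pseudogene Gm18734 farther on had 6 of 7 windows higher. Haplotype d is known to carry a class I gene, H2-L, that haplotype b lacks. A further 6 windows near H2-Q10 (chr17:35478751-35479650) were higher in D2 by a median of 0.77.

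Every call in a class I gene was on the side of lower signal in D2. Only 3 of the 28 class I genes of the annotation (H2-Q6, H2-Q7 and H2-T24) had a window, and of their 25 windows 19 were lower and 0 higher in D2 control mice (76.0%), with a median difference of -1.03. In CORT+DFP mice 20 were lower and 0 higher, and with set in place of age 12 and 16 stayed on the lower side. H2-Q6 and H2-Q7, genes of the nonclassical Qa-2 group, were lower in 5 of 5 and 2 of 2 windows. In the H2-Q7 window shown above (chr17:35440051-35440200, 10 CpGs) the B6 controls had 5.36, 5.45, 5.57, 5.61 and 5.70 log2 RPKM and the D2 controls 3.88, 4.32 and 4.58 at the lowest, median and highest. The difference was -1.32 ± 0.15, with no overlap. The window of H2-Q6 with the largest difference (chr17:35429101-35429250, 4 CpGs) had a difference of -1.91 ± 0.34, with 4 to 17 reads in the D2 controls and 33 to 51 in the B6 controls.

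H2-T24, a nonclassical class I gene of the T region, was lower in D2 in 12 of its 18 windows, and 13 were lower in CORT+DFP mice. In an intron window that A930015D03Rik also overlaps (chr17:36009301-36009450, 7 CpGs), the B6 controls had 4.42, 4.43, 4.57, 4.75 and 4.80 log2 RPKM and the D2 controls 2.53, 2.95 and 3.73 at the lowest, median and highest. The difference was -1.59 ± 0.18. Not the whole stretch moved one way, since a window of A930015D03Rik farther on (chr17:36036301-36036450) was higher in D2 by 0.91 ± 0.14. Next to H2-T24, Gm11127 was lower in 6 of 7 windows and Gm6034, which overlaps it, in 14 of 25. In the window of Gm11127 with the largest difference (chr17:36058201-36058350, 9 CpGs) the B6 controls had 4.28, 4.37, 4.49, 4.52 and 4.67 log2 RPKM and the D2 controls 1.60, 2.25 and 2.60, for a difference of -2.36 ± 0.21.

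Long runs of low D2 signal followed just beyond Gm6034. A run of 11 windows (chr17:36067651-36070050) had a median difference of -2.22, the next run of 13 (chr17:36070951-36073800) -2.78, and a run of 9 near Gm7030 (chr17:36103951-36106650) -3.60. In the run of 13 windows, the longest of those lower in D2, all 13 were called in CORT+DFP mice, and medians were 49.6 reads per B6 mouse and 10.9 per D2 mouse. In the run of 9 these were 41.7 and 1.67 reads. Each of these runs held windows with a mean of 3 or fewer reads in D2, which passed the authors' filter through B6 and had to differ. The repeat of such windows in CORT+DFP mice adds no support. The difference furthest below 0 among all 759 windows lay elsewhere, in a single window near Ddr1 (chr17:35723401-35723550, -4.68, with 36.6 reads per B6 mouse and 0.083 per D2 mouse). In the window with the most B6 reads among those with 3 or fewer in D2 (chr17:36068401-36068550, 14 CpGs), B6 mice had 637 reads in all and D2 mice 23. The D2 signal was not low throughout. The 4 windows between the runs of 11 and 13 were not called, with differences of 0.10, 0.32, 0.17 and -0.13. In all, 31 runs of 1 or more windows were higher and 69 lower in D2, and 6 and 14 of these had 4 or more windows.

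**Figure D4:**
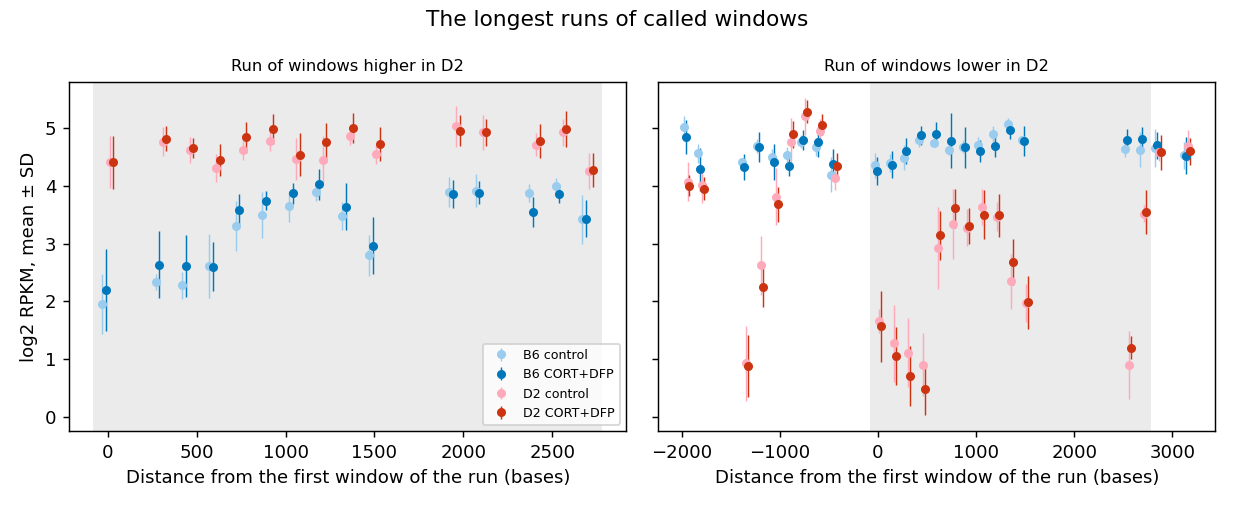
Mean log2 RPKM ± SD (y axis) of each group in the windows of the longest run higher in D2 (left, 15 windows) and lower in D2 (right, 13 windows), against the distance in bases from the first window of the run (x axis). Gray marks the run. Controls and CORT+DFP mice of a strain lie close together, and in the right panel the D2 mice reach the B6 level between the runs.

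The remaining gene groups of the MHC are given beside the 6.42% of all coding-exon windows and the 18.5% of all windows over genes that were called in control mice. Trim genes had 0 of 9 windows called in control mice in the regression and in limma, with 2 at an unadjusted p of 0.05 or less. Butyrophilin-like genes had 1 of 5 (20.0%) lower in D2, and the list of Pou5f1 and neighbouring skin genes had 5 of 44 (11.4%) lower, with 6 higher and 6 lower in CORT+DFP mice. The 4 neural genes in the annotation had no window. In the K part, Kifc1, a kinesin, was lower in D2 in 4 of 10 windows and Vps52, a subunit of vesicle tethering, in 4 of 8. A coding-exon window of Col11a2, a chain of fibrillar collagen, had a difference of -2.15 ± 0.24 (chr17:34051801-34051950, 3 CpGs). There the B6 controls had 4.25, 4.39, 4.62, 4.83 and 4.96 log2 RPKM and the D2 controls 1.89, 2.62 and 3.50 at the lowest, median and highest. Of the 26 windows of Col11a2, 2 were called in control mice, both lower in D2, and 7 in CORT+DFP mice, 6 higher and 1 lower.

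For treatment in B6, treatment in D2 and the treatment-by-strain interaction, the regression called 0 windows at an adjusted p under 0.05 in the MHC and 0 among all windows (0%). In limma 0 were called in the MHC for any of the 3, and over all windows 0 in B6, 5 in D2 and 0 for the interaction. At an unadjusted p of 0.05 or less, B6 had 68 windows (8.96%, against 5.86% of all windows), D2 39 (5.14%, against 5.33%) and the interaction 72 (9.49%, against 6.82%), and limma gave 63, 34 and 66. In B6, 61 of the 68 were lower after CORT+DFP, and in D2 31 of the 39 were higher. Over all windows 5880 of 12314 were higher in B6 and 5538 of 11199 in D2. Among all coding-exon windows of the matrix 445 of 2931 were higher in B6 and 1665 of 2041 in D2. The interaction, the effect in D2 minus that in B6, was positive in 65 of 72 windows. For the interaction 7185 of 14339 were positive over all windows and 3058 of 3462 in all coding exons. In the MHC the interaction was counted in 15 of 103 windows of the K part, 26 of 262 in class III, 23 of 253 in the T/M part, 5 of 63 in class II and 3 of 78 in the D/Q part. At p of 0.0001 or less, 0 windows were found in B6 (0.0109% of all windows), 0 in D2 (0.0181%) and 1 for the interaction (0.0114%), in Slc44a4.

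Coding exons over the whole genome had a positive median interaction too. The median interaction was 0.13 in the MHC and -0.0011 over all windows, but it was 0.12 over all 39191 coding-exon windows, and in the MHC it was 0.20 in coding exons. Outside coding exons the median was 0.08 in the MHC, with 25 of 31 windows at an unadjusted p of 0.05 or less positive, and -0.029 over all windows, with 4127 of 10877 positive. The mean level of coding exons outside the MHC was 4.48 ± 0.031 log2 RPKM in B6 controls, 4.45 ± 0.077 in B6 CORT+DFP, 4.43 ± 0.016 in D2 controls and 4.47 ± 0.073 in D2 CORT+DFP mice. With this level of each mouse as a further term, which was added after the data were seen, the median interaction in the MHC was 0.0069. In B6, 53 windows then had a p of 0.05 or less (6.98%, against 4.40% of all windows), of which 26 were higher. There were 39 in D2 (5.14%, against 4.79%), of which 22 were higher. For the interaction there were 43 (5.67%, against 4.48%), of which 25 were positive. The strain calls changed less, to 245 windows in control mice (86 higher and 159 lower) and 268 in CORT+DFP mice (105 and 163). These were 32.3% of the MHC in control mice, against 22.7% of all windows with this term, and 35.3% against 25.5% in CORT+DFP mice. In the remaining class III list, calls in control mice became 17 higher and 3 lower, in the complement list 3 higher and 2 lower, and in class I 0 higher and 18 lower.

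Slc44a4, a choline transporter gene of class III, held the 2 windows of the MHC that were called between the strains in opposite directions in the 2 treatments. In its intron window (chr17:34921351-34921500, 3 CpGs) the B6 controls had 3.79, 4.13, 4.13, 4.46 and 4.55 log2 RPKM, and the B6 CORT+DFP mice 3.47, 3.83 and 4.44 at the lowest, median and highest. The D2 controls had 3.53, 3.82 and 4.15 and the D2 CORT+DFP mice 3.88, 4.28 and 4.54, so all groups overlapped. The difference of D2 from B6 was -0.60 in controls and 0.52 after CORT+DFP. The interaction was 1.12 ± 0.18 (p = 1.1e-05, adjusted p = 0.608 in the regression), and exact permutation tests of treatment gave p = 0.119 in B6 and p = 0.0260 in D2. The adjacent window holds the coding stretch shown above and can share reads with it, and its interaction was 0.86 ± 0.18. With the coding-exon level as a term, the adjacent window was called between the strains in neither treatment, the intron window's interaction was 0.92, and without age it was 0.74. Neither kept a p of 0.0001 or less.

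A coding window of Col11a2 and an intron window of Mrps18b were named for their small treatment p. In the coding window of Col11a2 (chr17:34043251-34043400, 6 CpGs) the B6 controls had 4.37, 4.49, 4.52, 4.55 and 4.62 log2 RPKM and the B6 CORT+DFP mice 4.01, 4.34 and 4.41 at the lowest, median and highest. The D2 controls had 4.09, 4.38 and 4.61 and the D2 CORT+DFP mice 4.51, 4.60 and 5.01. The fitted effect was -0.36 in B6 (exact permutation p = 0.0152) and 0.32 in D2 (exact permutation p = 0.0541), with an adjusted p of 0.640 for the interaction in the regression. In the window of Mrps18b, a gene of the mitochondrial ribosome (chr17:35913151-35913300, 8 CpGs), the B6 controls had 3.96, 4.08, 4.16, 4.25 and 4.51 and the B6 CORT+DFP mice 3.47, 3.73 and 4.12, for an effect of -0.65 ± 0.14 (exact permutation p = 0.0152, and p = 0.0179 within set 2). In D2 the effect there was -0.0061, with 3.84 to 4.73 in controls and 3.92 to 4.35 after CORT+DFP. None of these passed an adjusted p of 0.05, and since the windows were chosen for small p-values, the exact ones describe them and add no support.

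**Figure D5:**
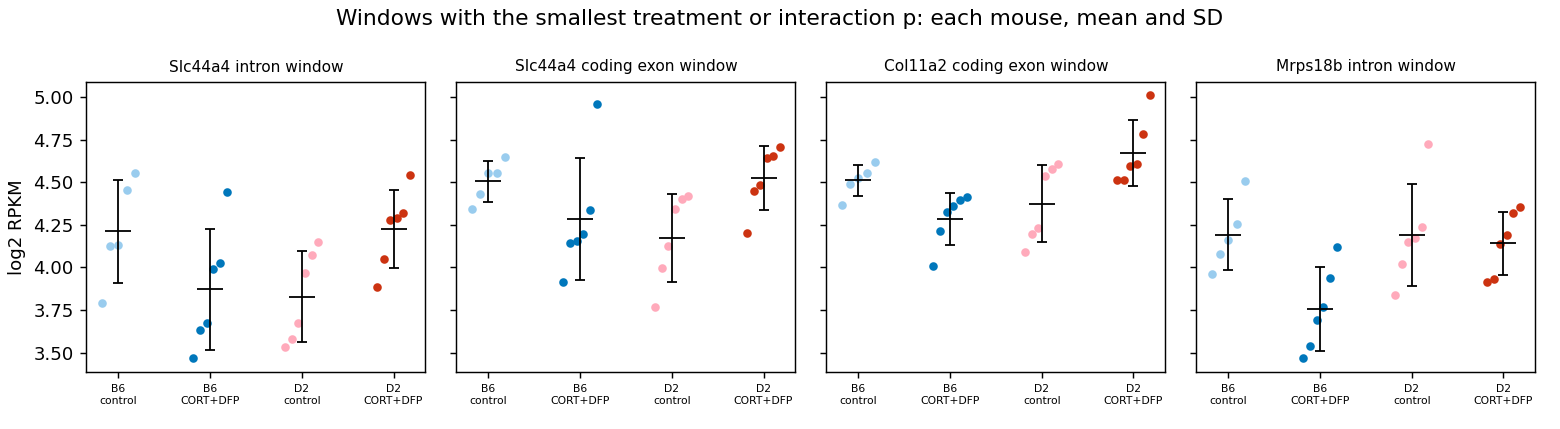
Log2 RPKM in each of the 23 mice (points), with the group mean and SD (bars), in 4 windows with small unadjusted p for treatment or for the interaction. In the first 3 windows the means after CORT+DFP were lower in B6 and higher in D2, as in the Slc44a4 intron (4.21 to 3.87 in B6, 3.83 to 4.23 in D2), with overlapping groups and no adjusted p under 0.05.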

How the data were processed

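Captured DNA of the prefrontal cortex of 23 mice was sequenced. Per the study's methods and the submitters' processing notes, reads were aligned to GRCm38 with STAR (2.5.0a), counted in 150-bp windows with MEDIPS, kept where a window held a CpG and enough reads in edgeR (3.34.1), and annotated with HOMER. What the authors deposited for each mouse is the log2 of RPKM, scaled by library size after a prior count was added. The number of CpGs per window, given as a whole-number count, was deposited by the authors beside them. Reads stacked at 1 position were reduced and reads were extended to 150 bases before deposit, so windows that lie side by side can share reads. From each value the reads were recovered, and 100% came out whole within 0.01 read, with a mean prior of 2 reads.

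Each of the 210191 windows was fitted by least squares with the terms of the study's own model (treatment, strain, the interaction of both, age and sex), in Python 3.11.15 with numpy 2.4.6, scipy 1.17.1 and pandas 2.3.3. P-values were adjusted by Benjamini-Hochberg over all windows and called under 0.05. Moderated statistics from limma 3.58.1 in R 4.3.3, set in place of age, no age, median centring, quantile normalization, log2(RPKM + 1), windows above 3 reads in each strain, set 2 alone for B6, gene lists in place of positions, and leaving out mice 1 at a time were the alternatives, and the coding-exon level was added after seeing the data. Exact two-sided permutation of the mice of 2 groups, which ignores sex and age, is given for treatment contrasts and not for strain differences, since windows were chosen with those seen. Strains were also compared within set 1. Replicate libraries differed by more than sampling noise (chi-square per window 1.18 to 4.04 over 22 pairs). Each library is labelled as 1 mouse, and p-values measure the spread between these mice. The recovery of reads and the regression were tested on simulated data. Gene positions, introns and exons are those of GENCODE M21, and figures were drawn with matplotlib 3.10.9.

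Named were up to 4 genes with the most windows in each of 12 gene lists, the called window with the largest difference in each direction in each of the 5 parts (above 3 reads in both strains, strains without overlap), the window with the most B6 reads among those with 3 or fewer in D2, the longest runs, the 2 windows with the smallest p for each treatment contrast, windows at gene starts, and the Slc44a4 window that the study plots. The windows given mouse by mouse in H2-DMb2, Hspa1a, Lta, H2-Q7, H2-T24 and Gm11127, the genes H2-DMb1, Gm18733 and Gm18734, and the second Slc44a4 window were added after their values were seen. The members and lists were chosen with earlier results of these data known.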

Additional observations from a re-analysis of the deposited data

Results flagged for a closer look

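In groups of 5 or 6 mice, the gap between the highest or lowest mouse and its neighbour was compared with the range of the group (Dixon's ratio), over 124 groups of windows and part means. In 5 groups a mouse stood apart, and chance gives about 1 in 20. The ratio was 0.641 in the window near Ndufa7 in B6 CORT+DFP mice, 0.838 in the mean of the K part in B6 control mice, 0.635 in the mean of the K part in D2 control mice, 0.701 in the mean of class II in D2 CORT+DFP mice, and 0.641 in the mean of the T/M part in D2 CORT+DFP mice. The effect of treatment in the Slc44a4 intron window differed between the strains by 1.12 log2 RPKM in a test of the difference itself (unadjusted p = 1.1e-05), which did not pass adjustment over all windows.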

How the results depend on the processing

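No paired analysis was possible because the labels give no replicate numbers that groups share. With set in place of age, strain calls in control mice were 154, of which 44 were higher and 110 lower in D2, and 78 windows were higher in CORT+DFP mice. Without age, 35 windows had an unadjusted p of 0.05 or less for treatment in B6 and 35 for the interaction. Quantile normalization gave 20 for treatment in D2, and the coding-exon level as a term, chosen after seeing the data, gave 43 for the interaction. With 1 mouse left out, treatment in B6 had 39 to 95 such windows, with 40 without B6 control replicate 1 and 39 without B6 CORT+DFP replicate 6, and the interaction had 47 to 91, with 47 without D2 CORT+DFP replicate 1. The interaction had 0 or 1 window past adjustment, the 1 without B6 control replicate 2. Strain calls ranged from 241 to 269 in control mice and from 259 to 281 in CORT+DFP mice. The causes of these changes were not tested. In B6 mice of set 2 alone, 57 windows had a p of 0.05 or less and 0 passed adjustment. No named window turned its direction under these alternatives, but the median strain difference over the MHC in control mice was -0.11 in the regression and 0.0027 with the coding-exon term. Over the named windows, 772 of the values with 1 mouse left out kept their side of the threshold, 6 passed it and 4 lost it, and over the other alternatives 261 kept it, 2 passed it and 7 lost it. The calls lost with set in place of age were those near Ndufa7 (0.72), in H2-DMb2 (0.71), H2-Eb1 (1.30) and Lta (0.18). Counting error (an SD of 0.23 on the log2 scale at 40 reads) was close to the median residual SD of 0.24, and a spread of this size limits what a single window can show. Replicate pairs differed by more than sampling noise (chi-square per window 1.18 to 4.04), and the sources of the spread were not tested.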

Other observations

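The regression also held a term for sex, which the study's comparisons do not describe within the MHC. At an adjusted p under 0.05, 5 of the 759 windows (0.659%) differed between males and females, a share near the 0.598% of the 195677 autosomal windows, so the count is no result about the MHC. The 5 were looked at after their values were seen and are given as values. Males were higher by 0.25 ± 0.066 (SE) and 0.30 ± 0.075 log2 RPKM in 2 windows between C4b and its neighbour (chr17:34754551-34754700 and chr17:34759051-34759200), and by 0.23 ± 0.065 near Tap2 (chr17:34219801-34219950). In a window of Gm8741 the difference of males from females was -0.32 ± 0.090, and near H2-M9 it was -0.22 ± 0.059. The intergenic block near C4b also held a run of 4 windows lower in D2 (chr17:34756801-34757700, median -1.22) and, 1 kb or so farther on, a run of 4 windows higher in D2 (chr17:34758751-34759350, median 0.49), and the second sex window lies within the latter. In the window of the lower run with the largest difference (chr17:34757401-34757550), B6 controls had 3.89 to 4.21 log2 RPKM and D2 controls 2.12 to 2.90, a difference of -1.67 ± 0.19. Elsewhere in the MHC, 5 neighbouring windows near Ppp1r10 (chr17:35941351-35942100) had about 83.9 reads per B6 mouse and 143 per D2 mouse.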
